A study of Mus musculus with 24 samples.

Results

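The genes described here are 10 genes that rise when cells lack oxygen and that retune metabolism: Pdk1, Bnip3, Egln3, Ankrd37, Ddit4, Higd1a, Pgk1, Ldha, Aldoa and Hk2. They were taken by name from the authors' deposited tables, 10 of 25471 genes listed in at least 1 of the 3 tables, and all 10 were listed and tested in each table. Messenger RNA had been sequenced from cells sorted by flow cytometry out of the brains of mouse embryos, in 24 samples. The mutants were Pdgfrb-Cre, Alk5(flox/flox), Zs/+ and the controls Pdgfrb-Cre, Alk5(flox/+), Zs/+, so that both groups carried the Cre driver, the ZsGreen reporter and at least 1 floxed copy of Alk5, the older name of the TGF-beta type I receptor gene Tgfbr1. Pericytes, the mural cells that wrap capillaries, came from 4 mutant and 4 control samples at E11.5 and from 4 mutant and 4 control samples at E13.5. Endothelial cells, the cells that line the vessels, came from 3 mutant and 5 control samples at E13.5. The labels give the mutants the disease state GMH-IVH. Cre under Pdgfrb acts in mural and other mesenchymal cells, so endothelial cells were not the cells meant to lose the receptor.

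In cells short of oxygen, the alpha subunits of the hypoxia-inducible factors (HIF) escape hydroxylation by the EGLN enzymes, pair with ARNT and bind a short DNA core. Their targets shift glucose carbon from mitochondrial oxidation towards lactate, limit the work of mitochondria and slow costly synthesis. Among the genes described here, Hk2, Aldoa, Pgk1 and Ldha encode enzymes on the route from glucose to lactate. PDK1 blocks the entry of pyruvate into mitochondria, BNIP3 marks mitochondria for removal and HIGD1A is a small protein of the inner mitochondrial membrane. EGLN3 hydroxylates HIF itself, DDIT4 restrains the growth kinase mTORC1, and Ankrd37 is a HIF target whose product carries ankyrin repeats. Early embryonic tissue is low in oxygen, and the growing brain vessels are the source of its oxygen.

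The DNA core that HIF reads stood in at least 1 promoter of each of the 10 genes. The core was searched in the form ACGTG, with the related form GCGTG, on both strands, in the 300 bases from 250 before to 50 after each RefSeq start (GRCm38.p6, the assembly of mm10). RefSeq gives 14 such promoters for the 10 genes, and 12 of them held at least 1 core. Among these 12, overlapping promoters of Aldoa hold the same single core. ACGTG stood in at least 1 promoter of 9 of the 10 genes. That count is per gene, some with several promoters, so it is not directly comparable with a share of promoters. Of all 32851 promoters 43.8% held 1 of the cores, and 19.6% held ACGTG. Base composition goes with this: the members' promoters had a median of 24 CG pairs, against 7 in all promoters. Among the 6563 promoters with at least 24 CG pairs, 75% held a core and 29.3% held ACGTG. A core that lies within CACGTG is read on both strands, and CACGTG itself stood in 7.15% of all promoters. A match is a description of the letters, not a bound site.

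The promoters printed here are that of 1 of the 3 starts of Aldoa, the gene called in endothelial cells, those of Bnip3 and Egln3, whose unadjusted p was below 0.05 there, and that of the first of 2 starts of Ldha, which held the most cores. They lie at chr7:126799205-126799504 (minus strand), chr7:138909457-138909756 (minus), chr12:54203825-54204124 (minus) and chr7:46845554-46845853 (plus), and capitals mark the cores on either strand.
Aldoa: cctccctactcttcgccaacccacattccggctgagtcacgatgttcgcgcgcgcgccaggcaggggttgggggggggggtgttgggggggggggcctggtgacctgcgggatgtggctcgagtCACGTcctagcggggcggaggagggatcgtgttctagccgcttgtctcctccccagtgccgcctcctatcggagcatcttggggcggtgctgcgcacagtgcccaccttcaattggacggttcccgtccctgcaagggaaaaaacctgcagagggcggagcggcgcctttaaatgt
Bnip3: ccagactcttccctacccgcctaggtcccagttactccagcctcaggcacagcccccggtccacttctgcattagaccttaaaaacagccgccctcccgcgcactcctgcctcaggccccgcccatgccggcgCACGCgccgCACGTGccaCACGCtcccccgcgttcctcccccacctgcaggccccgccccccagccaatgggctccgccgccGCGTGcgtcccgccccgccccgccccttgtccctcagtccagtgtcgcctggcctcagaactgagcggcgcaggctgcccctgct
Egln3: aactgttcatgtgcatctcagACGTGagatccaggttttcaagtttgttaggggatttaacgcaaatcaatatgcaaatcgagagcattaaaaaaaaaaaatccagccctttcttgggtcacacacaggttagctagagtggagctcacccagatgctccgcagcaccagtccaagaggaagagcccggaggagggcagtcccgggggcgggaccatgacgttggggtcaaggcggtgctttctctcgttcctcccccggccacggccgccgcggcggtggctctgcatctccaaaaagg
Ldha: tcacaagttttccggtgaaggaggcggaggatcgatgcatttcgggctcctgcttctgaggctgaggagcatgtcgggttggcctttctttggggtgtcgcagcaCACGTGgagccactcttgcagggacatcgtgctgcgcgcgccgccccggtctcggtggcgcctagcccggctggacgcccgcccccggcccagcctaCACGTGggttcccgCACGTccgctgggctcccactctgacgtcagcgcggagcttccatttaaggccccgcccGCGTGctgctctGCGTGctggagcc
The Bnip3 promoter crowds 2 ACGTG and 3 GCGTG matches before its start, 1 pair of them in a CACGTG. Ldha has 5 and 2 with 2 CACGTG, while Egln3 and this start of Aldoa have 1 ACGTG each. The Aldoa promoter printed is that of the second start. The first start held 0 cores, and the promoter of the third overlaps the one printed and holds the same core.

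Only Aldoa of the 10 genes passed the test, and only in endothelial cells of mutants, by the authors' deposited tables and an adjusted p of 0.05. In pericytes, the cells with the Cre driver, none passed at either stage. The values are the authors' group means of normalized counts, and values per sample were not analysed here. The SE of each log2 ratio is the one implied by the authors' ratio and p. Tgfbr1 itself did not pass in any table, with log2 ratios of 0.43, 0.03 and -0.11 in pericytes at E11.5 and at E13.5 and in endothelial cells by the authors' deposited tables, and reads over the floxed exons were not analysed here. Across all genes, 646 of 19301, 78 of 20084 and 1323 of 18132 passed in these 3 tables. Between the endothelial and pericyte lists, marker genes followed the sorts in controls. The summed level of 14 endothelial markers was 170731 in the endothelial table, where the pericyte markers listed summed to 4473. That of 14 pericyte markers was 33763 in the E13.5 pericyte table, where the endothelial markers summed to 4433. The E13.5 pericytes held more, 270829, for 12 markers of fibroblasts and meninges in controls, by the authors' deposited table. In such bulk samples, fewer cells of a type and less RNA per cell cannot be told apart.

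**Figure D1:**
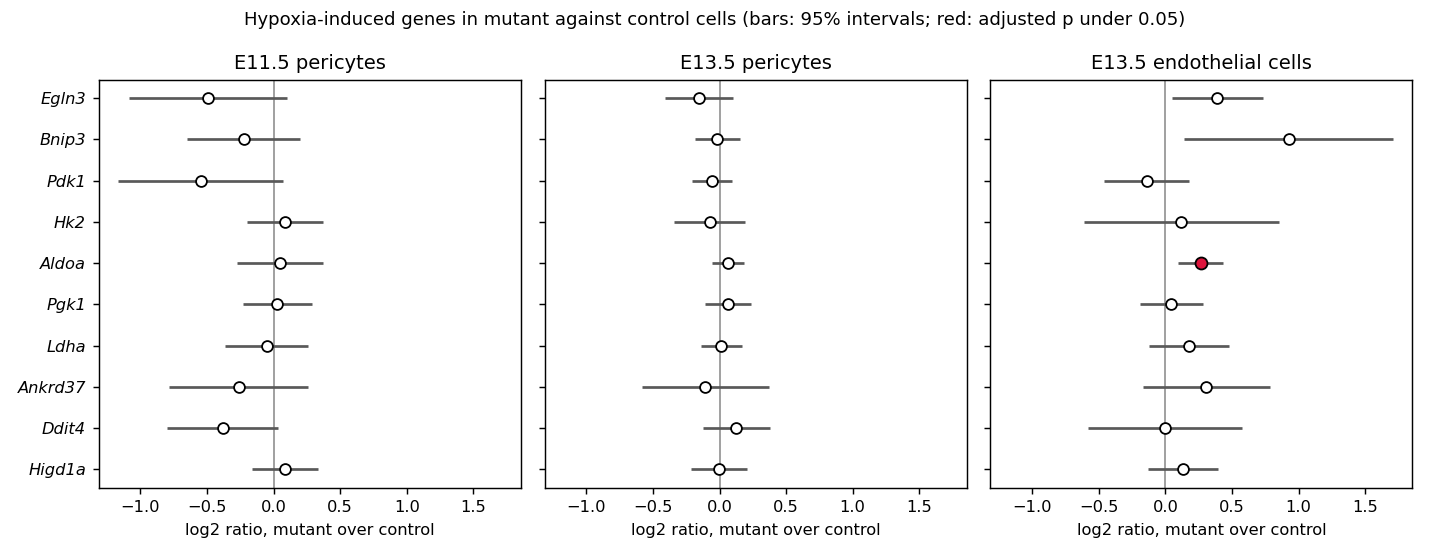
Log2 ratio of mutant over control (x axis) for each of the 10 genes (rows) in the 3 comparisons (panels); bars are 95% intervals from the implied SE and red marks an adjusted p under 0.05. Aldoa in E13.5 endothelial cells, at 0.27, is the single red point, and the E13.5 pericyte ratios lie between -0.155 and 0.127.

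Per kilobase of transcript, the lactate dehydrogenase A gene Ldha and the aldolase gene Aldoa held the first 2 places of the 10 genes in every group. Divided by transcript length, the Ldha mean of E13.5 endothelial cells was 11649 per kilobase in mutants and 10314 in controls, at the 99.3rd percentile of genes in both, by the authors' deposited table. Aldoa stood there at 9187 per kilobase in mutants and 7634 in controls. Bnip3 came next in E11.5 pericytes, at the 87.3rd percentile in mutants and the 89.8th in controls, and was lower in rank in E13.5 pericytes, at the 75.4th in mutants and the 75.5th in controls. The hexokinase gene Hk2 stood low among the 10, in place 8 in both groups of E11.5 pericytes, 8 in mutant and 7 in control E13.5 pericytes and 9 in both groups of endothelial cells, where it was at the 58.2nd percentile in mutants and the 56.4th in controls. Pdk1 took places 6 and 7.

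The HIF hydroxylase gene Egln3 and the ankyrin gene Ankrd37 were lowest of the 10 genes in pericytes. Egln3 stood at the 21.4th percentile in mutants and the 23.3rd in controls at E11.5, and at the 43.5th in mutants and the 45.1st in controls at E13.5, per kilobase in the authors' deposited tables. In endothelial cells Egln3 was again last of the 10, at the 50.4th percentile in mutants and the 45.1st in controls. Ankrd37 was at the 38.1st percentile in mutant and the 39.0th in control E13.5 pericytes, against the 65.9th in mutant and the 61.6th in control endothelial cells. The tables were normalized separately, so these ranks hold within a table and no difference in level between tables was tested.

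**Figure D2:**
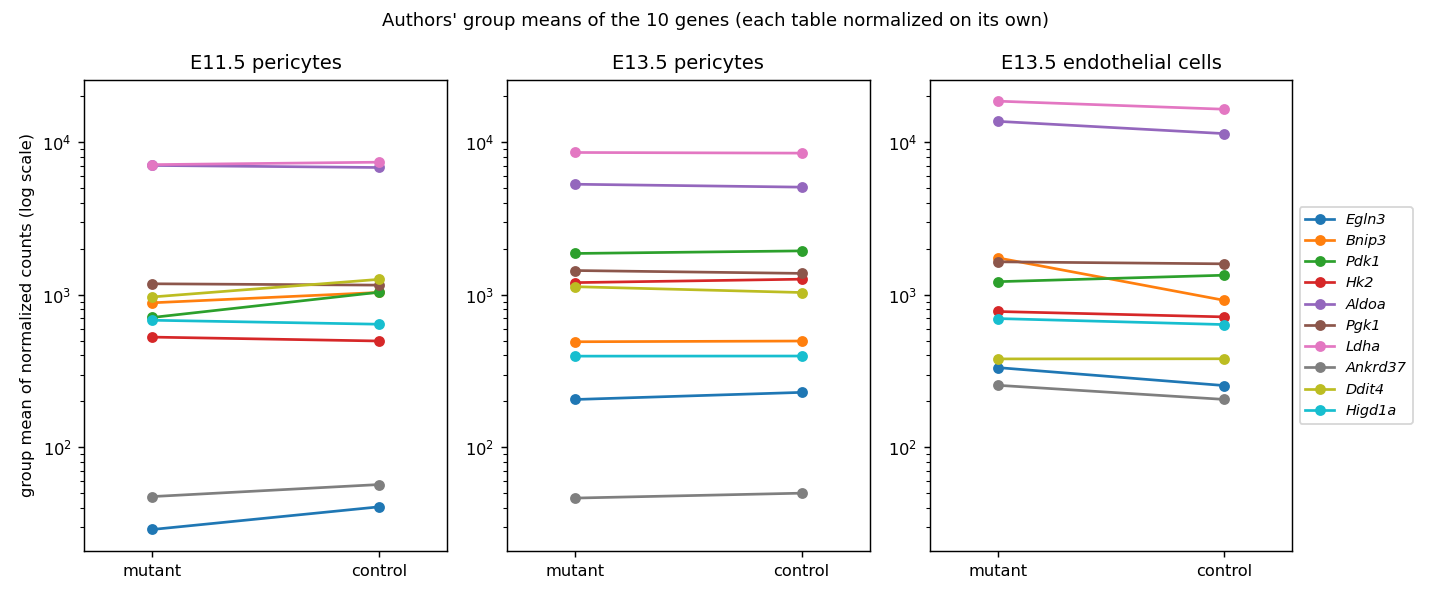
Group means of normalized counts (y axis, log scale) in mutants and controls (x axis) for each gene (colour), in the 3 tables (panels), as deposited by the authors and not divided by length. Bnip3 in E13.5 endothelial cells, at 1743 in mutants and 918 in controls, has the steepest line.

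In E13.5 endothelial cells, 8 of the 10 genes had a ratio above 1, where 48.3% of all genes tested did, and Aldoa passed. The 10 genes were chosen with earlier results of these data known, so this count is no test of them. With ratios scaled to equal summed means, which shifts every log2 ratio by -0.125, Pgk1 and Hk2 came to -0.081 and -0.008. With erythroid genes left out of the sums, Pgk1 and Hk2 kept their sign, at 0.026 and 0.1. By the authors' deposited table, Aldoa, which encodes the enzyme that splits fructose bisphosphate, averaged 13647 in mutants and 11341 in controls. That is a ratio of 1.20 (95% interval 1.07 to 1.35), a log2 ratio of 0.27 with an SE of 0.086 and an adjusted p of 0.0327 by the authors' DESeq2 fit. Higher calls made up 926 of 1323 in this table, against 634 of 2199 with ratios scaled to equal summed means. Without erythroid genes in the sums they made up 860 of 1337. Of all genes tested 7.3% passed in this table, and 5.11% passed as higher, so 1 of 10 is near the background. The call held without the filter on low genes and with a mean level of at least 10, at adjusted p of 0.0366 and 0.0341. It was lost under 3 other settings. The adjusted p was 0.051, at a log2 ratio of 0.25, when ratios were scaled to the summed means of all but erythroid genes, and 0.289, at 0.14, when erythroid genes were kept in the sums. With the log2 ratio left as it was, it was 0.602 when all test statistics were divided by 1.478, which brings their median size over all genes to that of a standard normal variable.

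The largest ratio was that of Bnip3, the mitophagy receptor gene. Per the authors' deposited table, Bnip3 averaged 1743 in mutants and 918 in controls, a ratio of 1.90 whose 95% interval runs from 1.10 to 3.28. Its adjusted p was 0.153 and its unadjusted p 0.0212. The implied SE of 0.40 was wide: of 4984 genes within 2-fold of its level, 98.3% had a smaller one, and their median was 0.144. From the authors' deposited table, Egln3 averaged 333 in mutants and 254 in controls, a log2 ratio of 0.39 (95% interval 0.049 to 0.73) and an adjusted p of 0.169. Counting Aldoa, 3 of the 10 genes had an unadjusted p below 0.05, all higher in mutants, where 20% of all genes tested passed that p and 11.2% were higher at it.

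The other steps from glucose to lactate had lower ratios. By the authors' deposited table, Ldha averaged 18499 in mutants and 16379 in controls, a log2 ratio of 0.18 (95% interval -0.125 to 0.48, adjusted p = 0.574). Phosphoglycerate kinase gene Pgk1 had 1642 in mutants and 1592 in controls there, with a log2 ratio of 0.044 (-0.193 to 0.28). Hk2, whose product traps glucose in the cell, averaged 776 in mutants and 715.5 in controls, but its interval from -0.615 to 0.85 covers changes of either sign. Its SE of 0.37 exceeded that of 96.7% of the 5931 genes within 2-fold of its level.

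Of the genes that act on mitochondria and growth, Pdk1 ran the other way, at 1217 in mutants and 1341 in controls by the authors' deposited table, with a log2 ratio of -0.14 (95% interval -0.458 to 0.18). Ddit4, the mTORC1 brake, had almost equal means of 379.8 in mutants and 380.6 in controls, with an interval of -0.578 to 0.57. Higd1a averaged 698 in mutants and 637 in controls, and Ankrd37 255 in mutants and 206 in controls, with adjusted p of 0.65 and 0.523 there. The median log2 ratio of the 10 genes was 0.15, against -0.0132 over all genes tested.

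The endothelial sort of mutants carried far more red cell RNA. Per the authors' deposited table, the summed level of the 12 erythroid markers listed was 1717321 in mutants and 64185 in controls, and 11 of 12 rose, while the marker Ahsp was not listed. Hba-a1, Hbb-y and Hba-a2, which encode haemoglobin chains, were the highest of them, at 632622, 495119 and 373760 in mutants and 22783, 15002 and 14069 in controls. All 14 myeloid markers had a ratio above 1, of which 3 rose, with sums of 24267 in mutants and 14338 in controls. Endothelial markers summed to 145946 in mutants and 170731 in controls, and 1 of 14, Kdr, fell. The part of these cells in the values of Aldoa, Bnip3 and Egln3 was not tested.

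**Figure D3:**
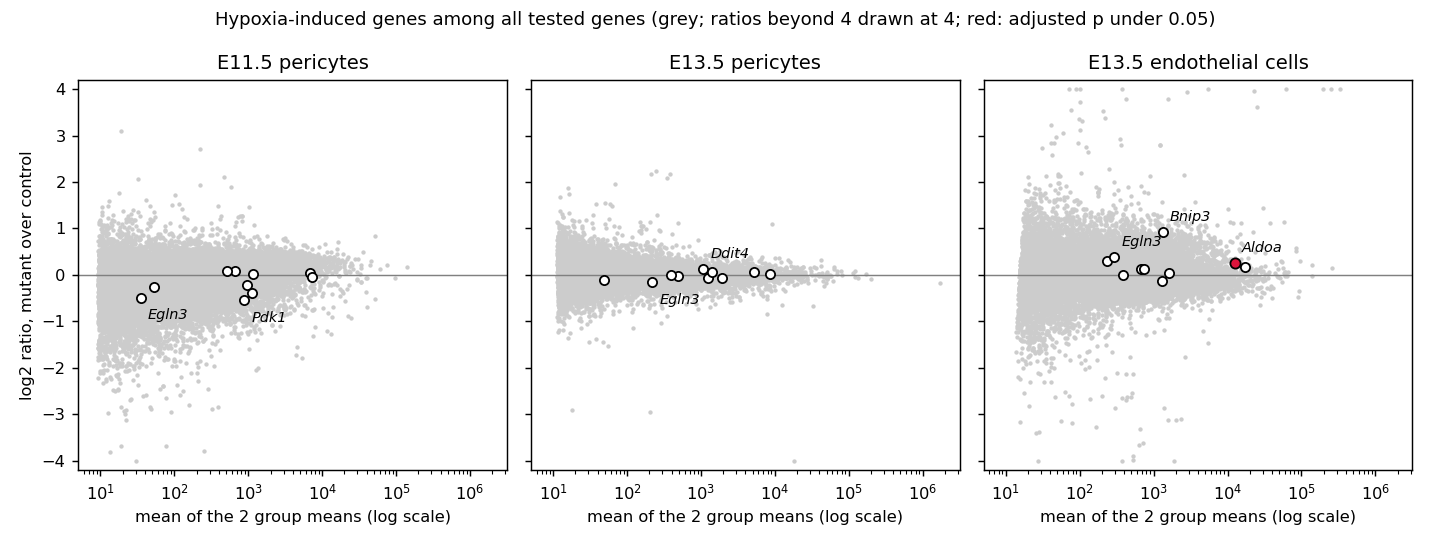
Log2 ratio of mutant over control (y axis) against the mean of both group means (x axis, log scale) for all tested genes (grey) and the 10 genes (circles; red for an adjusted p under 0.05) in each table (panels). Bnip3 is the highest circle, at 0.925 in E13.5 endothelial cells, and Aldoa there is the single red one; ratios beyond 4 in size are drawn at 4.

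In E13.5 pericytes the ratios of the 10 genes lay between 0.898 and 1.09. None of the 10 passed in the authors' deposited table, by DESeq2 with Benjamini-Hochberg adjustment, where 0.388% of all genes did, and 0 of 10 had an unadjusted p below 0.05, where 4.06% of all genes did. The adjusted p was 1.00 for each of them. From the authors' deposited table, Aldoa averaged 5287 in mutants and 5060 in controls, so its ratio of 1.04 has an interval of 0.963 to 1.13. Ldha had 8532 in mutants and 8450 in controls (ratio 1.01, interval 0.907 to 1.12).

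The mitochondrial genes of E13.5 pericytes had ratios close to 1. By the authors' deposited table, Pdk1 averaged 1862 in mutants and 1936 in controls, with a ratio of 0.96 (0.866 to 1.07). Bnip3 had 491.9 in mutants and 497.4 in controls (0.880 to 1.11), and Higd1a 396.0 in mutants and 396.7 in controls (0.863 to 1.15). Hk2 and Pgk1 had ratios of 0.95 and 1.04, from means of 1200 and 1440 in mutants and 1263 and 1379 in controls. Their intervals ran from 0.791 to 1.14 for Hk2 and from 0.927 to 1.18 for Pgk1. The interval was widest for Ankrd37, which was at 46.6 in mutants and 50.2 in controls, and ran from 0.668 to 1.29. Egln3, at 206 in mutants and 229 in controls, ran from 0.753 to 1.07. Ddit4 had 1128 in mutants and 1033 in controls, the highest ratio of the 10 at 1.09 (0.917 to 1.3).

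Pgk1 lies on chromosome X (positions 106187100 to 106203699, plus strand, GENCODE annotation of mm10). Per the authors' deposited table, Xist, the RNA of the inactive X chromosome, had means of 5.73 in mutant and 36145 in control E13.5 pericytes, while no sex is stated in the labels. Sex and genotype cannot be told apart in this comparison, for any gene. Xist values of the other comparisons are not given here. Erythroid markers summed to 2099 in mutant and 490 in control E13.5 pericytes, with 0 of 7 tested past the threshold of the DESeq2 fit and 3 at an unadjusted p below 0.05, and markers of pericytes to 34437 in mutants and 33763 in controls, with 1 of 14 lower. Dissociation genes summed to 104152 in mutants and 133619 in controls, with 14 of 16 below a ratio of 1 and 0 past the threshold of the authors' DESeq2 fit, adjusted or not. The part of these lists in the ratios was not tested.

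In E11.5 pericytes none of the 10 genes passed either, by the authors' DESeq2 fit with Benjamini-Hochberg adjustment, where 3.35% of all genes did, and 0 of 10 had an unadjusted p below 0.05, where 17.7% of all genes did. The lowest ratios were those of Pdk1, Egln3 and Ddit4. From the authors' deposited table, Pdk1 averaged 709 in mutants and 1037 in controls, a ratio of 0.68 with an interval of 0.444 to 1.05 (adjusted p = 0.354). Egln3 had only 29.0 in mutants and 40.8 in controls, a ratio of 0.71 (0.471 to 1.07). Ddit4 had 966 in mutants and 1260 in controls, a ratio of 0.77 (0.574 to 1.02, adjusted p = 0.334). These intervals reach from below 0.6 to just above 1, so neither a loss nor equality was shown.

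The glycolytic genes among the 10 had ratios close to 1 at E11.5. By the authors' deposited table, Aldoa averaged 7019 in mutants and 6804 in controls (ratio 1.03, interval 0.825 to 1.29), and Ldha 7103 in mutants and 7371 in controls (0.96, 0.775 to 1.20). Pgk1 had 1179 in mutants and 1155 in controls, Hk2 528 in mutants and 497 in controls and Higd1a 680 in mutants and 641 in controls, with ratios of 1.02, 1.06 and 1.06. Bnip3 had 885 in mutants and 1034 in controls (0.86, 0.638 to 1.15), and Ankrd37 47.7 in mutants and 57.1 in controls (0.83, 0.581 to 1.20). The implied SE were wider than at E13.5, with a median of 0.189 over the 10 genes against 0.097. In the E11.5 sort, pericyte markers summed to 13784 in mutants and 17580 in controls with 5 of 14 lower, fibroblast and meningeal markers to 53790 in mutants and 77674 in controls with 4 of 12 lower and 1 higher, and myeloid markers to 1327 in mutants and 2543 in controls with 2 of 14 lower. Endothelial markers summed to 1070 in mutants and 1893 in controls with 1 of 11 tested lower, and erythroid markers to only 60.95 in mutants and 132 in controls. Neural markers summed to 5978 in mutants and 6230 in controls with 0 of 10 past the threshold of the DESeq2 fit and 1 at an unadjusted p below 0.05, and genes of the response to cell dissociation, which include immediate early genes, to 78481 in mutants and 95575 in controls with 2 of 16 lower. The part of these lists in the ratios of the 10 genes was not tested.

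The effect of genotype was next compared between stages and between cell types, as 1 log2 ratio minus the other, divided by the SE of that difference, with Benjamini-Hochberg adjustment over all genes. The pericyte tables share no samples with each other or with the endothelial table, but the labels do not tie samples to separate litters. The SE of a difference takes both log2 ratios as independent, which the labels do not establish. Both tests use the E13.5 pericytes. In those samples sex and genotype cannot be told apart, as Xist above shows. No gene of the 10 passed between stages, where 1.43% of 18267 genes did, or between cell types, where 3.94% of 16920 did. With unadjusted p below 0.05 there was 1 gene between stages, Ddit4, against 13.3% of all genes. Its log2 ratio was 0.13 at E13.5 and -0.38 at E11.5, a difference of 0.51 (SE 0.25, adjusted p = 0.352 by this test on the DESeq2 estimates). Pdk1 differed by 0.49 with a wider SE of 0.33.

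Between cell types at E13.5, 2 genes had an unadjusted p below 0.05, against 15.6% of all genes. Bnip3 had a log2 ratio of 0.92 in endothelial cells and -0.016 in pericytes, a difference of 0.94 (95% interval 0.136 to 1.75, adjusted p = 0.213 by the same test on DESeq2 estimates). Egln3 had 0.39 in endothelial cells and -0.155 in pericytes, a difference of 0.55 (0.120 to 0.97, adjusted p = 0.156). Aldoa, the called gene, differed by 0.20 (-0.002 to 0.41, adjusted p = 0.329), so an effect on Aldoa particular to endothelial cells was not shown.

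**Figure D4:**
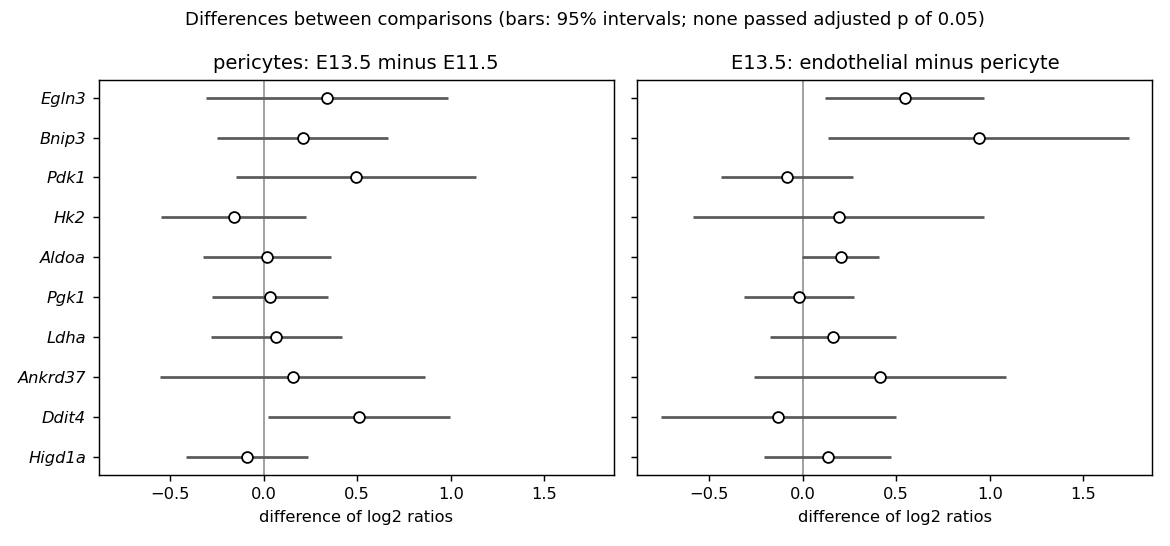
Difference of the log2 ratios of mutant over control (x axis) for each gene (rows), E13.5 minus E11.5 pericytes on the left and endothelial cells minus pericytes at E13.5 on the right, with 95% intervals as bars. Only Ddit4 on the left and Bnip3 and Egln3 on the right have intervals that leave out 0, before adjustment.

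The counts of 3 glycolytic genes, Higd1a and Bnip3 are uncertain, since the mouse genome holds pseudogene copies of them. Of all 50-base windows of the Pgk1 transcript, 68% occur in a transcript of another gene in the GENCODE annotation of mm10, against 21.9% for Bnip3, 16.6% for Ldha, a smaller share for Aldoa, 7.5% for Higd1a and 0 for the other 5 genes. The labels do not say how reads with several matches were counted. Per the authors' deposited table, the Pgk1 copies Pgk1-rs7 and Gm5537, annotated as processed pseudogenes on chromosomes 12 and 3, had means of 2850 and 2849 in mutant and 2753 and 2748 in control E13.5 pericytes, above the 1440 in mutants and 1379 in controls of Pgk1 itself. The level and rank of Pgk1 given here are uncertain for that reason.

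The copies share sequence with the genes they resemble, so their values are not independent of them. In endothelial cells the Bnip3 copies Gm16439 and Gm6532 had ratios of 1.99 and 1.95, from means of 534 and 256 in mutants and 268 and 131 in controls by the authors' deposited table, with adjusted p of 0.151 and 0.230. The 6 copies of Aldoa that are listed there all had a ratio above 1, with log2 ratios of 0.24 to 0.34, and 3 of them passed. Gm9790, a copy of Higd1a, had 1047 in mutants and 762 in controls, with an adjusted p of 0.0751, beside the ratio of 1.095 of Higd1a. Exons of Bnip3, Ankrd37 and Higd1a also overlap genes on the opposite strand over 22.3%, 22.7% and 22.5% of their exonic bases. Whether the counting used strand is not stated either, so reads of such pairs cannot be told apart.

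Other genes of hypoxia and energy metabolism were followed in 9 lists with 137 genes besides the 10. These lists were chosen with earlier results of these data known. A share of calls above that of all genes is therefore no test of a list, in any of the comparisons. In E11.5 pericytes 8 of 130 tested fell and 1 rose, 6.92% in all against 3.35% of all genes, with a median log2 ratio of -0.06. With the test statistics of this table divided in the same way by 1.508, 0 of these 9 passed. From the authors' deposited table, Vegfa, the vessel growth factor gene and a classic HIF target, fell to a mean of 110 in mutants, against 260 in controls (log2 ratio -1.24, adjusted p = 0.013). Epas1, which encodes HIF-2 alpha, fell to 261 in mutants, against 516 in controls (log2 ratio -0.98, adjusted p = 0.00702), while Hif1a had 4313 in mutants and 3953 in controls (adjusted p = 0.721). Egln1, the main HIF hydroxylase gene, had 299 in mutants and 445 in controls (adjusted p = 0.413), and the glucose transporter gene Slc2a1 1029 in mutants and 1082 in controls (adjusted p = 0.784).

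The other E11.5 calls came from several lists. Of 19 genes of glycolysis and lactate export 2 fell, the enolase gene Eno2 and the phosphofructokinase gene Pfkp, at log2 ratios of -0.88 and -0.48 by the authors' deposited table. Besides Vegfa, 2 of 34 other hypoxia-induced genes fell, Ndufa4l2, which encodes a mitochondrial protein, and Stc2, which encodes a secreted glycoprotein, with log2 ratios of -1.03 and -1.70. The stress gene Nupr1 fell by 1.95 on the log2 scale and the mitophagy kinase gene Pink1 by 1.15, while Mthfd2, an enzyme of mitochondrial folate metabolism, rose by 0.43 with an adjusted p of 0.0496. This single higher call was lost without the filter on low genes, at an adjusted p of 0.0559, and with equal summed means, at 0.0834. Of 14 genes of pyruvate entry and 13 mTORC1 regulators 0 passed by the authors' DESeq2 fit, with 3 and 0 at an unadjusted p below 0.05. The markers of pericytes, fibroblasts and myeloid cells given above were lower in the same samples, and their part in these falls was not tested.

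In E13.5 pericytes 3 of 130 list genes passed and all rose, 2.31% against 0.388% of all genes. By the authors' deposited table, they were Adm, which encodes the vasodilator peptide adrenomedullin, at 68.5 in mutants and 33.8 in controls, Cox4i2, which encodes an oxygen-sensitive subunit isoform of cytochrome oxidase, at 110 in mutants and 60.5 in controls, and Cited2, which encodes a protein that competes with HIF for a co-activator, at 1584 in mutants and 1237 in controls. All 3 belong to the 34 other hypoxia-induced genes, whose median log2 ratio was -0.021. Sex and genotype cannot be told apart for these calls either. Per the authors' deposited table, Vegfa had 3118 in mutants and 3282 in controls, Hif1a 3863 in mutants and 4026 in controls, Epas1 746 in mutants and 681 in controls, Egln1 2048 in mutants and 2034 in controls and Slc2a1 1521 in mutants and 1389 in controls, each with an adjusted p of 1.00.

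In endothelial cells 7 of 127 list genes rose and 5 fell, 9.45% against 7.3% of all genes, and 0 passed with test statistics divided by 1.478. After scaling to equal summed means the balance turned, with 4 higher and 19 lower among 23 calls. Without erythroid genes in the sums it was 7 higher and 6 lower. From the authors' deposited table, the stress genes Trib3 and Ddit3, targets of the factor ATF4, rose 3.55-fold and 2.25-fold, with means of 522 and 596 in mutants and 147 and 265 in controls. The autophagy genes Sqstm1 and Gabarap rose 1.45-fold and 1.41-fold, but neither passed with equal summed means, at adjusted p of 0.0853 and 0.102. Both passed without erythroid genes in the sums, at adjusted p of 0.0311 and 0.0352. Of the 14 genes of mitophagy 13 had a ratio above 1, against 48.3% of all genes tested, and 7 of 14 did with equal summed means. With erythroid genes left out of the sums it was again 13 of 14. Bnip3l, the paralogue of Bnip3 that clears mitochondria from maturing red cells, had 4505 in mutants and 3679 in controls (adjusted p = 0.397), and the part of the erythroid RNA of these samples in the mitophagy values was not tested. Mif, a cytokine gene, and Elob, which encodes a subunit of the ligase that degrades HIF, rose 1.46-fold and 1.67-fold, and Mpc2, a subunit of the mitochondrial pyruvate carrier, 1.32-fold, though Mpc2 had an adjusted p of 0.15 with equal summed means. For Mpc2 the adjusted p was 0.0434 without erythroid genes in the sums.

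Lower in mutant endothelial cells were Pfkfb3, whose product drives glycolysis in sprouting endothelium, at 1189 in mutants and 1513 in controls, and Pdpr, which encodes a regulator of pyruvate dehydrogenase phosphatase, at 174 in mutants and 295 in controls, by the authors' deposited table. The transferrin receptor gene Tfrc, the amino acid transporter gene Slc7a5 and Sesn3, which encodes a restraint on mTORC1, had log2 ratios of -0.44, -0.35 and -0.58, and Tfrc lost its call without the filter on low genes, at an adjusted p of 0.0541, and with a mean level of at least 10, at 0.0504. Slc2a1, the glucose transporter gene of the blood-brain barrier, had 33465 in mutants and 41197 in controls (adjusted p = 0.180), Hif1a 4583 in mutants and 5410 in controls (adjusted p = 0.173), Epas1 6342 in mutants and 8646 in controls (adjusted p = 0.123) and Egln1 781 in mutants and 755 in controls (adjusted p = 0.923). Vegfa was at 17.3 in mutants and 8.21 in controls, with no adjusted p given. The paralogues of the 10 genes gave 0 calls among the 13 tested there by the authors' DESeq2 fit, with 3 at an unadjusted p below 0.05.

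**Figure D5:**
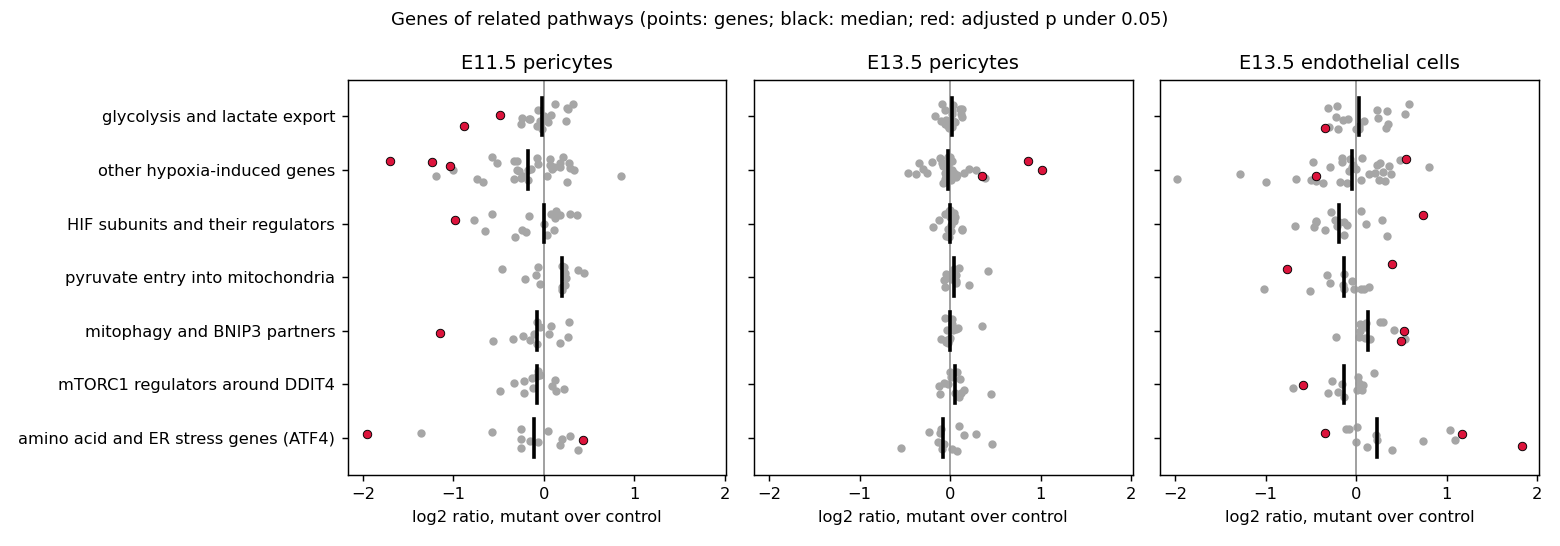
Log2 ratio of mutant over control (x axis) of each tested gene (points) in 7 lists of related genes (rows) and the 3 comparisons (panels); black bars are list medians and red marks an adjusted p under 0.05. Red points lie mostly left of 0 in E11.5 pericytes, right of 0 in E13.5 pericytes and on both sides in endothelial cells.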

How the data were processed

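Per the labels' protocols, sorted cells gave RNA for KAPA mRNA libraries, read on a NovaSeq. The submitters' processing notes name Partek, Bowtie2, DESeq2 and the build mm10, without versions. Annotation, counting, filters and model formula are not given in the sources used here. Each deposited table compares mutant with control. Per the file headers it gives a p-value, a step-up FDR, a ratio, a signed fold change and a least-squares mean per group. The authors' group means are a signal, read here as mean normalized counts of unstated scale, so the depth per sample is unknown. The deposited signed fold change, a score below 0 for ratios under 1, was not used. The deposited FDR equals the Benjamini-Hochberg value over the genes that have one and is printed as the adjusted p.

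Log2 ratios come from the deposited ratio, and their SE from the ratio and the two-sided p, assuming a Wald test. The plan foresaw a count model per library where counts were given, and the deposited values were used in its place. The steps were run on simulated ratios drawn with the implied SE, which checks the code and not whether that SE fits these data. The labels do not tie samples to separate litters, so p-values cover the spread among these samples alone. The 10 genes and all lists were chosen with earlier results of these data known. Named were the 10 genes in every comparison, Tgfbr1, Hif1a, Epas1, Egln1, Vegfa, Slc2a1, Xist beside Pgk1, the called genes of each pathway list and the 3 highest erythroid genes. The genes of sequence copies, Kdr and Bnip3l were named after their values were seen. Transcript lengths are medians over coding transcripts in GENCODE's basic set (97.5% of tested symbols found). Scripts ran on scipy 1.17.1 and pandas 2.3.3 under Python 3.11.15, with numpy 2.4.6; figures used matplotlib 3.10.9.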

Additional observations from a re-analysis of the deposited data

How the results depend on the processing

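No paired analysis was possible because the deposited columns are group values, and leaving out single samples, other count models and other size factors were not run for the same reason. In both pericyte tables and in both tests between tables, 0 of the 10 genes passed under every setting tried. In endothelial cells 0 in place of 1 passed with ratios scaled to equal summed means (Aldoa log2 ratio 0.14), to equal sums without erythroid genes, a setting added after the data were seen (0.25), and with all test statistics divided by 1 constant, set by the normal median (rescaled spread). The equal sums shifted all endothelial log2 ratios by -0.125, or by -0.018 without erythroid genes. Sign changes were limited to genes near equality. With equal sums Pgk1 came to -0.015 in E11.5 pericytes and -0.081 in endothelial cells, Hk2 to -0.008 in endothelial cells, and Bnip3 and Higd1a to 0.003 and 0.017 in E13.5 pericytes, and the pericyte values were the same without erythroid genes. Without those genes, Pgk1 and Hk2 kept their sign in endothelial cells, at 0.026 and 0.1. Of 210 values of single genes under other settings, 199 were counted as unchanged, 8 changed sign and 3 lost their call. All 3 lost calls were that of Aldoa in endothelial cells, the only call there was to lose. The number unchanged therefore does not measure how firm that call is. The 8 sign changes all came with the scaled sums. Apart from the pseudocount, the other settings leave each log2 ratio as it was, so its sign could not change there. The pseudocount values have no p and were counted as unchanged when they moved by less than their SE.

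Over all genes, the rescaled spread left 5 calls in place of 646 in E11.5 pericytes, 142 in place of 78 in E13.5 pericytes and 49 in place of 1323 in endothelial cells, and 2 in place of 262 between stages and 15 in place of 666 between cell types. The lists then held 0 calls in place of 9, 5 in place of 3 and 0 in place of 12. Equal sums gave 2199 calls and 23 list calls (4 higher, 19 lower, against 7 and 5) in endothelial cells, 445 between stages, also without erythroid genes, and 1224 between cell types. In endothelial cells the share of calls higher in mutants was then 634 of 2199, against 926 of 1323. Without erythroid genes in the sums, endothelial cells had 860 higher of 1337 calls and 13 list calls (7 higher, 6 lower). Between cell types there were 678 calls in that setting. A threshold of 0.1 gave 1139 calls in E11.5 pericytes and 447 between stages. The cause of these shifts was not tested.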
